A study of Mus musculus with 10 samples.

Results

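The annexins measured here are the genes Anxa1, Anxa2, Anxa3, Anxa4, Anxa5, Anxa6 and Anxa7. They were chosen by gene symbol, with every probe set that carries the symbol, because the family had been seen to rise with Rab5 siRNA, so the difference between Rab5 siRNA and control siRNA chose them and is given below as a description with no test. A probe set is a handful of oligonucleotides that together read 1 transcript, mostly close to its 3' end. The 7 genes are read by 17 probe sets, out of 18193 genes and 34945 probe sets with exactly 1 gene symbol. An eighth member, Anxa11, is named only, because its 1 probe set carries several symbols. The label holds for Anxa2, Anxa4, Anxa5 and Anxa7, whose Rab5 siRNA values lay above every control siRNA and PBS value. It holds narrowly for Anxa6 and does not hold for Anxa1 and Anxa3, whose groups overlapped.

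RNA came from livers of male C57BL/6 NHsd mice and was measured on Affymetrix 3' expression arrays of the mouse genome. The groups were phosphate-buffered saline alone (PBS, 2 arrays), lipid nanoparticles with a control siRNA (4 arrays) and lipid nanoparticles with siRNAs against all Rab5 genes (4 arrays), given into the tail vein, the siRNAs at 1.5 mg/kg, with livers taken on day 5. The sample titles describe the control as scrambled, the series' design text as luciferase, so it is called the control siRNA. Rab5 proteins are small GTPases of early endosomes. Whole liver tissue was used, so the cell type behind a signal was not separated, and fewer cells of a type and less RNA per cell cannot be told apart. The titles number the livers but do not say that each array is a mouse of its own, and a p-value therefore measures only how these samples scatter, which may be technical.

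Annexins are proteins that bind acidic phospholipids, such as phosphatidylserine, on the cytoplasmic side of membranes when calcium is present. Each has a conserved core of annexin repeats and a variable N-terminal tail that binds partners, many of them S100 proteins. They act in vesicle traffic, endocytosis, exocytosis, plasma membrane repair and the links between membranes and actin. In normal liver, hepatocytes contain Anxa4, Anxa5, Anxa6 and Anxa7 among others, while Anxa1, Anxa2 and Anxa3 are better known from bile duct, immune, endothelial and stromal cells and from regenerating or transformed hepatocytes.

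The promoters of the 4 members whose Rab5 siRNA values stood above all others are printed because the genes moved together, and that of Anxa1, whose groups overlapped, is printed beside them. The RefSeq promoter table of GRCm38.p6 held 6 of the 8 members, in 8 windows, and not Anxa3 or Anxa6. Each line gives the 250 bases before the transcription start, 5′ to 3′ on the gene's strand. Capitals mark every match, on either strand, to 6 motifs: the TATA box (TATAAA), AP-1 (TGANTCA), the GC box (GGGCGG), the CCAAT box (CCAAT), the antioxidant response element (TGACNNNGC) and TEAD (GGAATG). Anxa4 and Anxa7 have 2 starts each in the table, of which start 1 is shown.
Anxa2: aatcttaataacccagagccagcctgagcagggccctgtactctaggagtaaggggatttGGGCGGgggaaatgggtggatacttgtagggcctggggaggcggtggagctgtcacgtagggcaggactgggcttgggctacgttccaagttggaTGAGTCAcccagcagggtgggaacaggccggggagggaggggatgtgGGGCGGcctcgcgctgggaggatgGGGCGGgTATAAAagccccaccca
Anxa5: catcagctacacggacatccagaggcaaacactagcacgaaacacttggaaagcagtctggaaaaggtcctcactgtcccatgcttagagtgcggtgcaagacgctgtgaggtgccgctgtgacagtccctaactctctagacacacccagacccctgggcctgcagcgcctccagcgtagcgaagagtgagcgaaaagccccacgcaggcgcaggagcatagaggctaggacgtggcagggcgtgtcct
Anxa4, start 1: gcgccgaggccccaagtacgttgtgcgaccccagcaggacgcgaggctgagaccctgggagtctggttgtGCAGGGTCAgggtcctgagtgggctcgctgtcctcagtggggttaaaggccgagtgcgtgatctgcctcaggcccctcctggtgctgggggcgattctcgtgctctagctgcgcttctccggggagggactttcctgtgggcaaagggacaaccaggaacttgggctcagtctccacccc
Anxa7, start 1: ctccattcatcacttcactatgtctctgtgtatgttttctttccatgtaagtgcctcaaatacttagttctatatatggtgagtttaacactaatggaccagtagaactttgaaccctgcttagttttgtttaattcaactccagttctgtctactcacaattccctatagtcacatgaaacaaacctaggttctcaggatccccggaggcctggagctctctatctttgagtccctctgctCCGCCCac
Anxa1: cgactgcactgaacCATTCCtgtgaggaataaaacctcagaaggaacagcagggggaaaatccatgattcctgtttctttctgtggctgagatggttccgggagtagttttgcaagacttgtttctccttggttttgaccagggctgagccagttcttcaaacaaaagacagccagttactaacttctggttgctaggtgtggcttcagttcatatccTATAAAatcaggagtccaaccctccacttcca
The windows differed in make-up. That of Anxa2, chr9:69453433-69453682 on the + strand, was 62.4% G or C and held a TATA box 17 to 12 bases before the start, an AP-1 motif 95 to 89 bases before it and 3 GC boxes. That of Anxa5, chr3:36475888-36476137 on the - strand, was 58.8% G or C and held none of the 6 motifs. That of Anxa4, chr6:86793585-86793834 on the - strand, held 1 antioxidant response element, 180 to 172 bases before the start, read on the opposite strand. That of Anxa7, chr14:20480134-20480383 on the - strand, held 1 GC box on the opposite strand, 8 to 3 bases before the start. Of the windows not printed, that of Anxa7 start 2 was 62% G or C, against 42.4% at start 1, and held 4 GC boxes. That of Anxa4 start 2 held none of the 6 motifs. That of Anxa1, chr19:20390672-20390921 on the - strand, held a TATA box 32 to 27 bases before the start and 1 TEAD motif on the opposite strand. Thus no motif was shared by all 4 separated members. Over all 32851 windows of the same length, 12.4% held the TATA letters, 6.75% AP-1, 32.7% the GC box, 33.8% CCAAT, 10.2% the antioxidant response element and 12.6% TEAD, and the median G or C content was 52.4%. A match is only a run of letters, and a missing one says only that these letters are not in the window.

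Values are deposited log2 intensities made with robust multi-array average (RMA), so a difference of 1 is a doubling, and a gene is represented by its probe set with the highest mean. The number of arrays limits the precision. Of the targeted genes, Rab5a with Rab5 siRNA was at 28.6% and Rab5c at 25.1% of the control siRNA signal, while Rab5b, dim on all arrays, differed by -0.24 (SE 0.127, limma adjusted p = 0.194). Albumin (Alb), the defining product of hepatocytes, lay between 13.90 and 14.14 on every array. That is near the top of the scale, since the highest value of an array was 14.43 to 14.48. Pairs of arrays within a group had Pearson correlations across genes (which are not independent) of 0.975 to 0.992. Pairs from different groups had 0.942 to 0.991, so the 2 ranges overlapped. On the first principal component, Rab5 siRNA replicate 1 scored 17.5 and the other Rab5 siRNA arrays 30.3 to 38.3, against -25.0 to -15.9 for the control siRNA arrays, so replicate 1 stood nearer the controls than its group did. The difference between the 3' and 5' Gapdh control probe sets, a sign of RNA quality, was highest in each group in the array numbered 2, and the fit was repeated without those 3 arrays.

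Anxa2 and Anxa5 had the widest differences of the family. Anxa2 encodes a protein that pairs with S100a10 on the cell surface, where the pair binds plasminogen and its activator, and on endosomes. It read 7.14 and 6.91 with PBS, then 7.22, 7.30, 7.08 and 7.34 with control siRNA replicates 1 to 4. With Rab5 siRNA replicates 1 to 4 it read 9.28, 10.21, 10.55 and 10.74. Replicate 1 was the lowest of the Rab5 siRNA livers and still lay 1.93 above the highest control liver. The means were 7.24 ± 0.116 (SD, n = 4) with control siRNA and 10.20 ± 0.651 (SD, n = 4) with Rab5 siRNA, a difference of 2.96 (moderated standard error, SE, 0.240) or 7.78-fold. That was the rise of rank 8 among the 12855 genes tested. Averaging its probe sets instead of taking the brightest made the difference 1.78.

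Anxa5 encodes the phosphatidylserine-binding annexin used as a probe of dying cells. It read 9.18 and 8.94 with PBS, and 9.31, 9.51, 9.54 and 9.41 with control siRNA. With Rab5 siRNA it read 11.22, 11.41, 11.46 and 11.62. The Rab5 siRNA livers lay close together, unlike for Anxa2, and the lowest was 1.68 above the highest control liver. The mean rose from 9.44 ± 0.106 (SD, n = 4) to 11.43 ± 0.164 (SD, n = 4), a difference of 1.99 (SE 0.109), 3.97-fold and of rank 51 among all rises.

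Anxa4 and Anxa7 differed less, on high levels. Anxa4, an annexin of epithelial apical membranes, read 8.53 and 8.72 with PBS, and 8.48, 8.81, 8.71 and 8.71 with control siRNA. With Rab5 siRNA it read 9.44, 9.59, 9.39 and 9.74, all above every other liver. Its difference was 0.86 (SE 0.109), 1.82-fold. Anxa7, also called synexin, which aggregates and fuses membranes, read 9.51 and 9.15 with PBS, and 9.24, 9.50, 9.72 and 9.29 with control siRNA. With Rab5 siRNA it read 10.06, 10.03, 10.23 and 10.11. The spread of the Rab5 siRNA livers (SD 0.0900) was smaller than that of the control livers (SD 0.219), and the gap between the groups was 0.31. Its difference was 0.67 (SE 0.124), 1.59-fold.

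Anxa6, a large annexin with 2 copies of the repeat core that is found on late endosomes and on lipid-rich membranes, differed little. It read 6.36 and 6.50 with PBS, 6.44, 6.39, 6.46 and 6.23 with control siRNA, and 6.63, 6.80, 6.83 and 6.48 with Rab5 siRNA. The lowest Rab5 siRNA liver lay 0.02 above the highest control liver and below the higher PBS liver. The difference was 0.31 (SE 0.105), and 0.13 when its probe sets were averaged. Replicate 4, the highest liver for Anxa2 and Anxa5, was the lowest for Anxa6.

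Anxa1 and Anxa3 were set apart by 1 liver. Anxa1, a mediator of glucocorticoid action on inflammation through formyl peptide receptors, read 5.36 and 5.58 with PBS, and 5.32, 5.98, 5.63 and 5.82 with control siRNA. With Rab5 siRNA it read 5.36, 5.91, 5.85 and 7.04. The first 3 of these lay inside the control range and replicate 4 was 1.06 above it. The difference of 0.35 (SE 0.273) became 0.02 without replicate 4. Anxa3, an annexin found in neutrophils, read 5.04 and 5.02 with PBS, 5.24, 5.22, 4.93 and 5.05 with control siRNA, and 5.28, 5.18, 4.91 and 6.03 with Rab5 siRNA. Again only replicate 4 stood clearly above the other livers, and the difference of 0.24 (SE 0.186) became 0.01 without it.

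**Figure D1:**
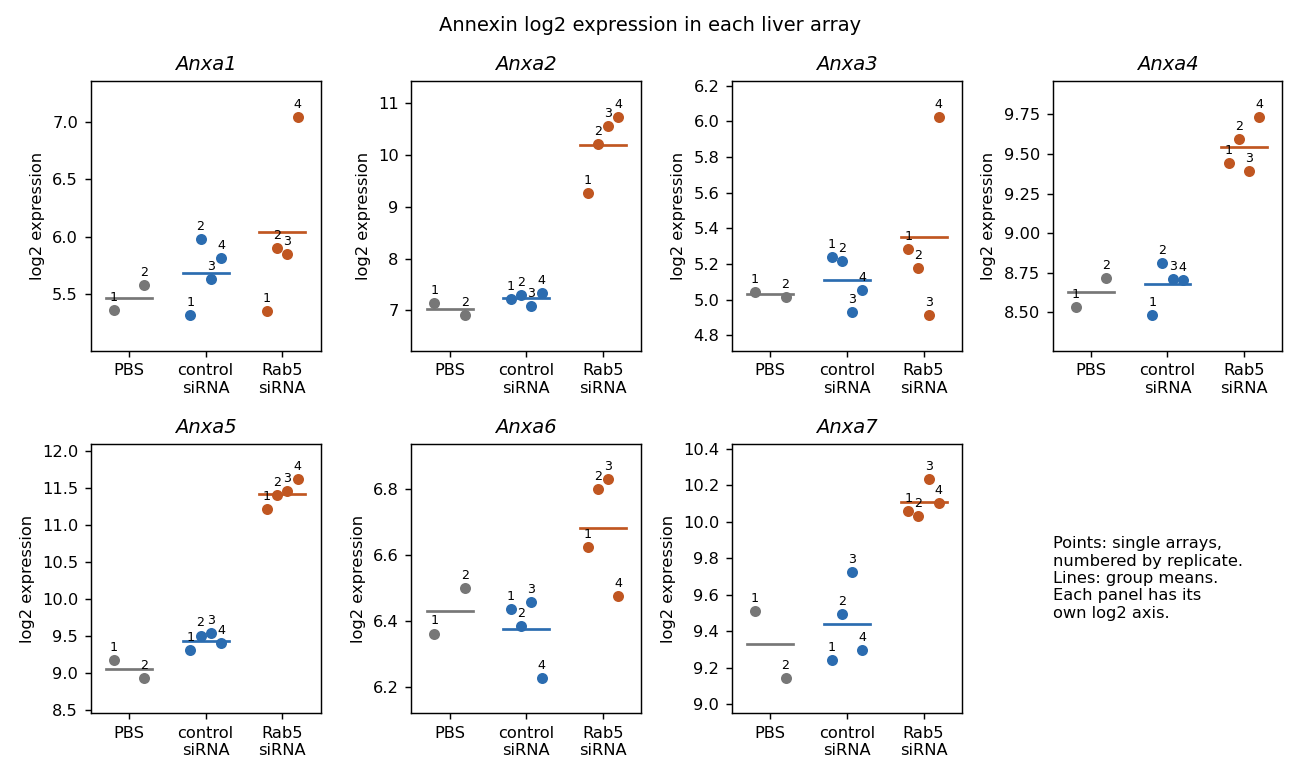
Deposited log2 level of each annexin (vertical axis) in every array, by group on the horizontal axis, with group means as lines and points numbered by replicate; each panel has its own axis. Anxa2, Anxa4, Anxa5 and Anxa7 separate the Rab5 siRNA livers from all others, whereas for Anxa1 and Anxa3 only replicate 4 stands clearly above, at 7.04 and 6.03.

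In all, 7 of 7 annexins had a difference above 0 between Rab5 siRNA and control siRNA, where 50.5% of all genes did. In 5 of them no Rab5 siRNA liver overlapped a control liver, and 13.8% of all genes were separated in this direction. At an adjusted p under 0.05 in limma, a linear model fitted across all genes, 4 of 7 would be called higher and 0 lower, beside 13.8% of genes called higher and 9.51% lower. With the replicate number as a block, Anxa6 passed too and 5 of 7 would be called. Because the family was picked on this contrast, nothing is read from these shares. The median difference was 0.67, and that of all genes tested was 0.0026.

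The probe sets of a gene did not always behave alike. Of the 17, 14 passed the filter on low values, which asked for a value above 4.33, the median of the table, in at least 2 arrays, and 3 stayed below it. In 9 of 17 the Rab5 siRNA values lay above all control siRNA values, beside 7.60% of all probe sets, and in 8 they lay above PBS too. In the limma fit over all probe sets 8 of 17 would be called higher, beside 6.21% of all. All 3 probe sets of Anxa4 were separated, with differences of 0.86, 0.98 (SE 0.179) and 0.81 (SE 0.107). Of Anxa7, 2 of 3 were, with differences of 0.67 and 0.55 (SE 0.112), whereas the dimmest gave 0.21 (SE 0.110) with overlap. For Anxa2 the brightest gave 2.96, a dimmer one 0.59 (SE 0.110) from a control mean of 4.53, and the dimmest, near 2 on every array, -0.15 (SE 0.106). Of the 4 probe sets of Anxa6, the brightest alone was separated, and the others gave -0.04 (SE 0.110), 0.13 (SE 0.141) and -0.05 (SE 0.158). The dim probe set of Anxa1 gave -0.25 (SE 0.108). Dim probe sets have no measured background here, so their differences have no known floor.

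**Figure D2:**
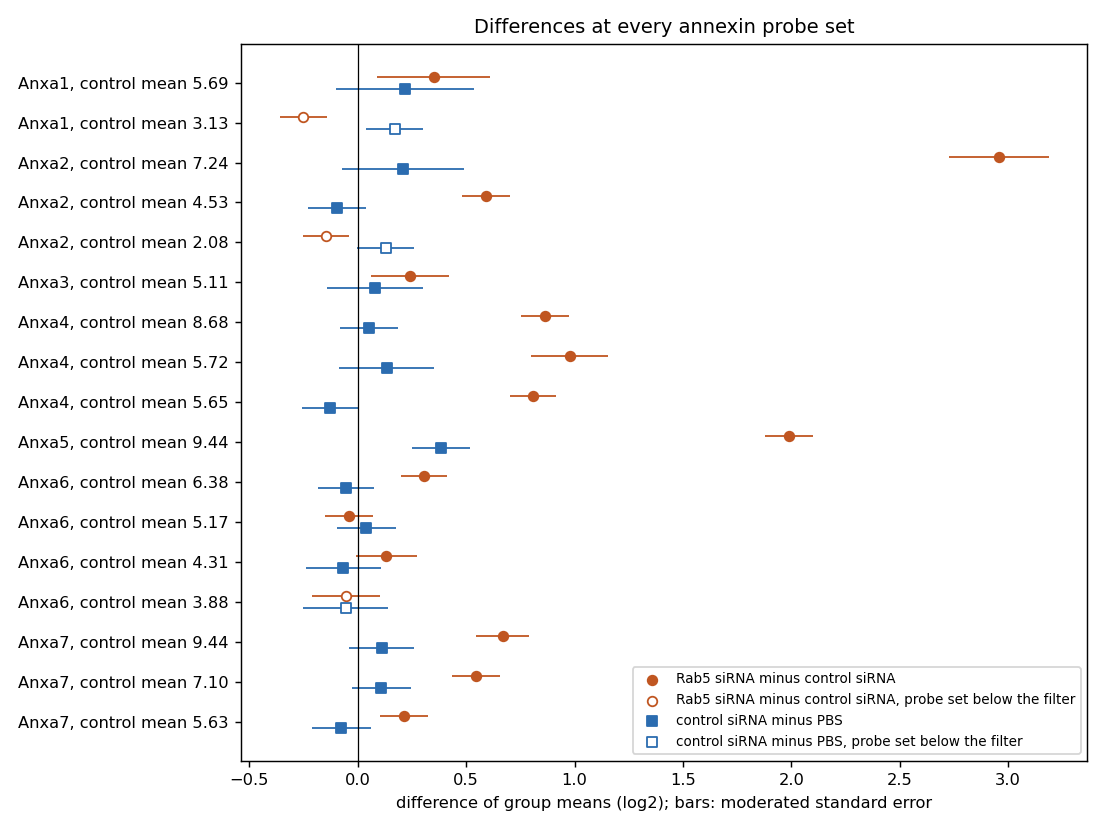
Differences of group means (horizontal axis, log2) at each of the 17 annexin probe sets (rows, with the mean control siRNA level), as circles for Rab5 siRNA minus control siRNA and squares for control siRNA minus PBS; bars are moderated standard errors and open symbols probe sets below the filter. For Rab5 siRNA minus control siRNA the 3 probe sets of Anxa4 lie at 0.81 to 0.98, while those of Anxa2 run from -0.15 to 2.96, the widest being the brightest.

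Among the Rab5 siRNA livers, replicate 4 was the highest for 5 of 7 annexins (Anxa1, Anxa2, Anxa3, Anxa4 and Anxa5) and replicate 3 for Anxa6 and Anxa7. Replicate 1 was the lowest for Anxa1, Anxa2 and Anxa5. For Anxa2, the distance from the control mean was 2.04, 2.97, 3.32 and 3.50 in replicates 1 to 4, a range wider than the whole difference of Anxa4. For Anxa5 it was 1.78, 1.97, 2.02 and 2.18. Without replicate 1 the difference of Anxa2 was 3.27 and without replicate 4 it was 2.78, so neither liver carried it.

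Markers of other liver cells differed between the groups to unlike extents. Of 13 measured markers of Kupffer cells, the resident macrophages of the liver, and other macrophages, 8 rose and 0 fell with Rab5 siRNA (limma, adjusted p under 0.05), beside 23.3% of all genes called in either direction. Cd68, a lysosomal protein of macrophages, rose by 1.08 (limma adjusted p = 2.02e-05), and the scavenger receptor Marco had the largest rise, 1.09 (limma adjusted p = 0.0341), a call lost in 7 alternatives, each leaving out 1 or more siRNA arrays. Siglec1 differed by -0.14 with no call. The count was 5 without the arrays numbered 2, and 5 without any 1 of control siRNA replicates 1 and 3 or Rab5 siRNA replicates 2, 3 and 4. The summed linear signal of this list was 7265 to 8063 with PBS, 6992 to 8547 with control siRNA and 9634 to 13192 with Rab5 siRNA. Its mean log2 level stood 0.20, 0.65, 0.70 and 0.69 above the control mean in Rab5 siRNA replicates 1 to 4, so replicate 1 was lowest here as for Anxa2 and Anxa5. Replicate 1 was also the lowest for the stellate cell (-0.06), monocyte and neutrophil (-0.28) and S100 (-0.13) lists. It was the highest for the cholangiocyte (0.31), endothelial (-0.08) and mesothelial (0.04) lists. The part of macrophages in the annexin values was not tested.

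The counts of the other marker lists come from short lists. They stand beside 13.8% of all genes that rose and 9.51% that fell, or 23.3% in either direction. Of 13 stellate cell and fibroblast markers, 2 rose, with Acta2 at 0.69 and Dcn, not called, at -0.17. The summed signal was 2333 to 3037 with control siRNA and 2569 to 3351 with Rab5 siRNA. This count of stellate cell and fibroblast markers was 1 in 11 of the alternatives and 5 in 2 of them. Of 4 cholangiocyte markers measured, 1 rose (Sox9, 0.45, with a count of 0 in 6 alternatives), Muc1 gave -0.26, and the summed signal was 129 to 147 with control siRNA and 144 to 180 with Rab5 siRNA. The bile duct markers Krt7, Cftr and Prom1 lay below the filter. Of 10 endothelial markers, 1 rose and 3 fell, from Cdh5 at 0.44 to Ptprb at -0.53 (2 called without the arrays numbered 2), and the sum was 2106 to 2265 with control siRNA and 1758 to 2046 with Rab5 siRNA. Of 8 lymphocyte markers 1 fell (Ighm, -1.38) and Cd79a gave 0.15, with sums of 381 to 425 and 272 to 302. Of 5 monocyte and neutrophil markers 1 rose (Plac8, 0.79) and 1 fell (Ngp, -0.69), a count that was 1 in 13 alternatives and 0 without the arrays numbered 2, with sums of 532 to 1243 and 771 to 1355. Of 2 mesothelial markers 1 fell (Upk3b, -0.57) and Upk1b gave 0.05, with sums of 68 to 88 and 57 to 91, while Msln and Wt1 lay below the filter. Of 9 hepatocyte markers 1 rose (Ahsg, 0.69) and 2 fell (Tat, -1.37, the largest), with sums of 67144 to 69813 and 67841 to 70593. These sums are mostly the signal of the brightest markers, such as Alb. The mean log2 level of the hepatocyte list, taken from the control mean, was -0.09 to 0.08 with control siRNA. With Rab5 siRNA it was -0.23 to -0.15, without overlap. The part of all these cell types in the annexin values was not tested either.

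**Figure D3:**
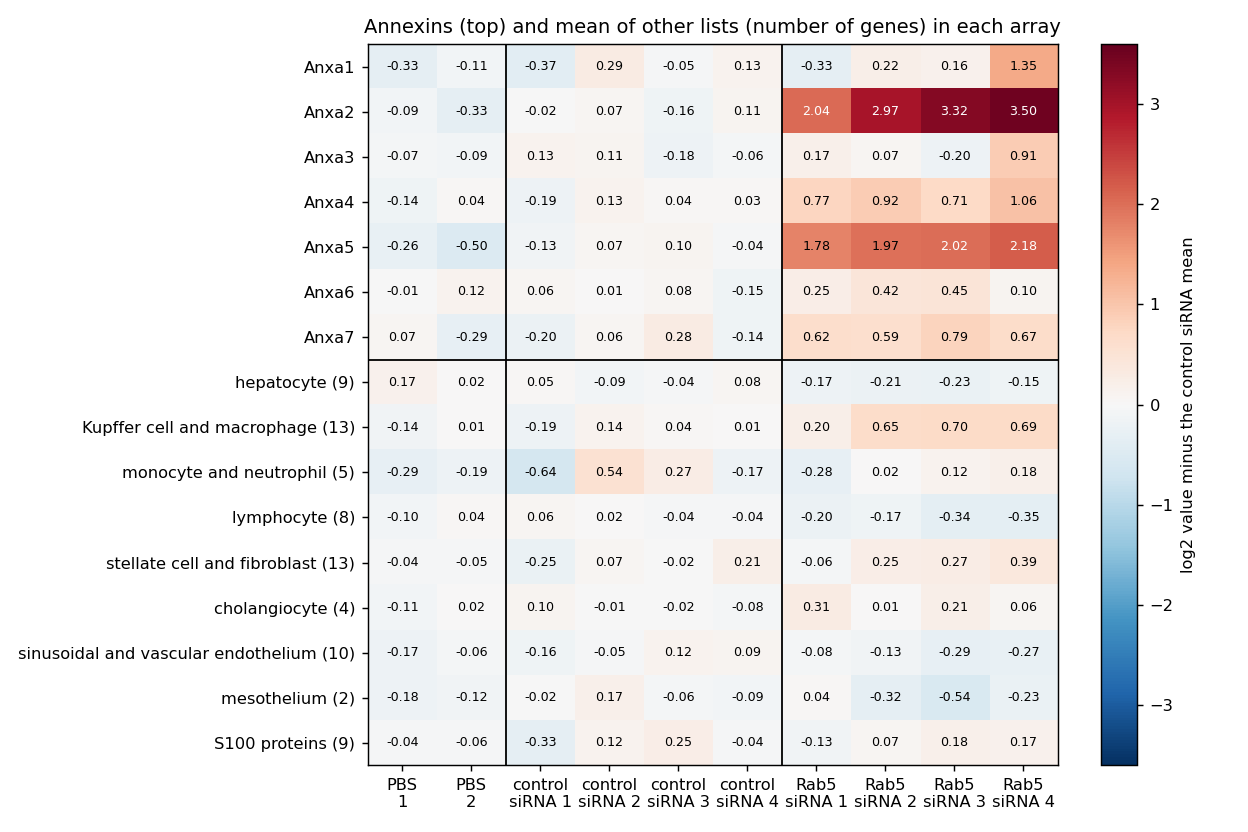
Level of each annexin and mean level of each marker list and of the S100 proteins in every array (columns, by group and replicate), as the log2 distance from the mean of the control siRNA arrays; the colour scale is in log2 units. Rab5 siRNA replicate 1 is the palest of its group for Anxa2 (2.04) and for the Kupffer cell and macrophage list (0.20). The same holds for the stellate cell and fibroblast list (-0.06).

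The comparison of control siRNA with PBS sets nanoparticles without a Rab5 siRNA against saline alone. None of the 7 annexins was called in it (limma adjusted p between 0.994 and 0.999), and 0% of all genes were, while at an unadjusted p under 0.05 the limma fit gave 1 annexin and 4.31% of genes. That annexin was Anxa5, whose 4 control siRNA livers, at 9.31 or more, lay above both PBS livers, the higher of which read 9.18. Its difference was 0.38 (SE 0.133, limma adjusted p = 0.994), and 6.57% of all genes were separated in this direction. The other differences were 0.22 (SE 0.334) for Anxa1, 0.21 (SE 0.294) for Anxa2, 0.08 for Anxa3, 0.05 for Anxa4, -0.05 for Anxa6 and 0.11 for Anxa7, with overlap in each. Differences above 0 numbered 6 of 7, beside 47.6% of all genes, but 4 of 7 with the replicate block and 5 of 7 without PBS replicate 1, and 5 of the 7 signs turned in at least 1 alternative. The median was 0.11 for the annexins and -0.01 for all genes.

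This comparison shares its control arrays with the one above, and Rab5 siRNA against PBS shares the Rab5 siRNA arrays, so the latter is given only as values. Against PBS, Anxa2 was higher by 3.17, Anxa5 by 2.37, Anxa4 by 0.91, Anxa7 by 0.78, Anxa1 by 0.57, Anxa3 by 0.32 and Anxa6 by 0.25. The order of the first 4 was the one seen against control siRNA. In 4 of the 7 no Rab5 siRNA liver overlapped a PBS liver, beside 19.8% of all genes. By limma 4 of 7 would be called higher and 0 lower, beside 9.53% and 7.59% of all genes, or 17.1% in either direction.

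Genes of annexin partners and pathways were taken from 7 lists and tested over all genes with limma. The closest partners came first. Of 9 S100 proteins measured, 2 rose, 0 fell and the median was 0.02, where 13.8% of all genes tested rose and 9.51% fell. S100a10, the partner of Anxa2, read 10.21, 10.58, 10.39 and 10.40 with control siRNA and 10.85, 11.40, 11.31 and 11.58 with Rab5 siRNA. The groups did not overlap, and it rose by 0.89 (SE 0.143, limma adjusted p = 5.56e-04), with the lowest value again in replicate 1. S100a16 rose by 0.26 (SE 0.0852, limma adjusted p = 0.041), a call that ended in 14 of 20 alternatives, among them leaving out either PBS array, any control siRNA array or Rab5 siRNA replicate 2 or 3, after which 1 S100 protein was called. S100a11, a partner of Anxa1, was not analysed here.

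Of 18 genes of membrane repair and of the penta-EF-hand calcium sensors that bind annexin tails, 6 rose, 0 fell and the median was 0.23, beside 13.8% of all genes that rose. Sorcin (Sri), a calcium sensor that binds Anxa7, rose by 0.82 (SE 0.0956, limma adjusted p = 4.61e-05), from 7.80 to 7.95 with control siRNA to between 8.51 and 8.78 with Rab5 siRNA. The related grancalcin, Gca, rose by 0.90 (SE 0.242, limma adjusted p = 0.016), a call lost without Rab5 siRNA replicate 2 (limma adjusted p = 0.0516) and without the arrays numbered 2 (0.137). The calpain subunits Capns1 and Capn2, calcium-dependent proteases, rose by 0.65 (SE 0.105, limma adjusted p = 5.45e-04) and 0.63 (SE 0.124, limma adjusted p = 2.30e-03). Without the arrays numbered 2 the count was 3 instead of 6.

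The next list held 16 genes that move phosphatidylserine, the lipid annexins bind, across membranes, or that bind it. Of these, 9 rose, 0 fell and the median was 0.40, again beside 13.8% of all genes that rose. Differences above 0 numbered 10 of 16. Atp11a, Atp8a1, Atp8b1 and their subunit Tmem30a, listed as transporters of lipid toward the cytoplasmic side, gave -0.28, -0.30, -0.05 and -0.21, none called. Also below 0 and not called were Plscr2 (-0.25) and Plscr4 (-0.19), of the phospholipid scramblase family, so scramblase genes lay on both sides of 0. Plscr1, a phospholipid scramblase, rose by 1.52 (SE 0.155, limma adjusted p = 1.69e-05), with every Rab5 siRNA liver at 8.19 or more and no control liver above 7.07. The scramblase Ano6 rose by 0.85 (SE 0.115, limma adjusted p = 1.49e-04). Mfge8, a secreted bridge between exposed phosphatidylserine and phagocytes, rose by 0.74 (SE 0.109, limma adjusted p = 2.73e-04). Timd4, a phosphatidylserine receptor that is also among the Kupffer cell markers above, rose by 0.72 (SE 0.214, limma adjusted p = 0.027). The count was 3 without the arrays numbered 2, and 5 without any 1 of control siRNA replicates 1 and 3 or Rab5 siRNA replicates 2 and 3, and the call of Timd4 ended in each of these cases (limma adjusted p of 0.0547 to 0.116) and without Rab5 siRNA replicate 4 (0.079).

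Of 5 genes of plasminogen activation 1 rose and the median was -0.01. It was thrombomodulin (Thbd), a thrombin receptor of endothelium, at 0.73 (SE 0.229, limma adjusted p = 0.0349), a call lost without any 1 of control siRNA replicates 2 to 4 or Rab5 siRNA replicates 1, 2 and 4, after which 0 genes were called. Plasminogen itself (Plg) gave -0.16. Of 13 genes of the phospholipases A2, which Anxa1 is known for restraining, and of the eicosanoids made from their products, 3 rose, 0 fell and the median was -0.15. With 13.8% of all genes rising and 23.3% called in either direction, counts of this size in lists this short are near the background. They were Pla2g4a (0.66, limma adjusted p = 0.0477, lost in 12 alternatives), Pla2g12b (0.45, limma adjusted p = 4.51e-03) and Alox5ap (0.44, limma adjusted p = 7.49e-03, and 0.091 without the arrays numbered 2). With the replicate number as a block 5 of them were called, and without the arrays numbered 2 only 1 was. Of 6 copines, another family of calcium-dependent phospholipid-binding proteins, 0 were called by limma and 2 had an unadjusted p under 0.05, Cpne8 at -0.49 and Cpne1 at 0.22, where 35% of all genes did. Cpne3 gave 0.23 (SE 0.144), and the replicate block gave 1 call. Of the 4 other annexins, Anxa8, Anxa10 and Anxa13 lay below the filter. Anxa9 passed it only through Rab5 siRNA arrays, so its value of 0.69 (SE 0.163) is given without being counted. In control siRNA against PBS limma called 0 genes of these 7 lists.

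**Figure D4:**
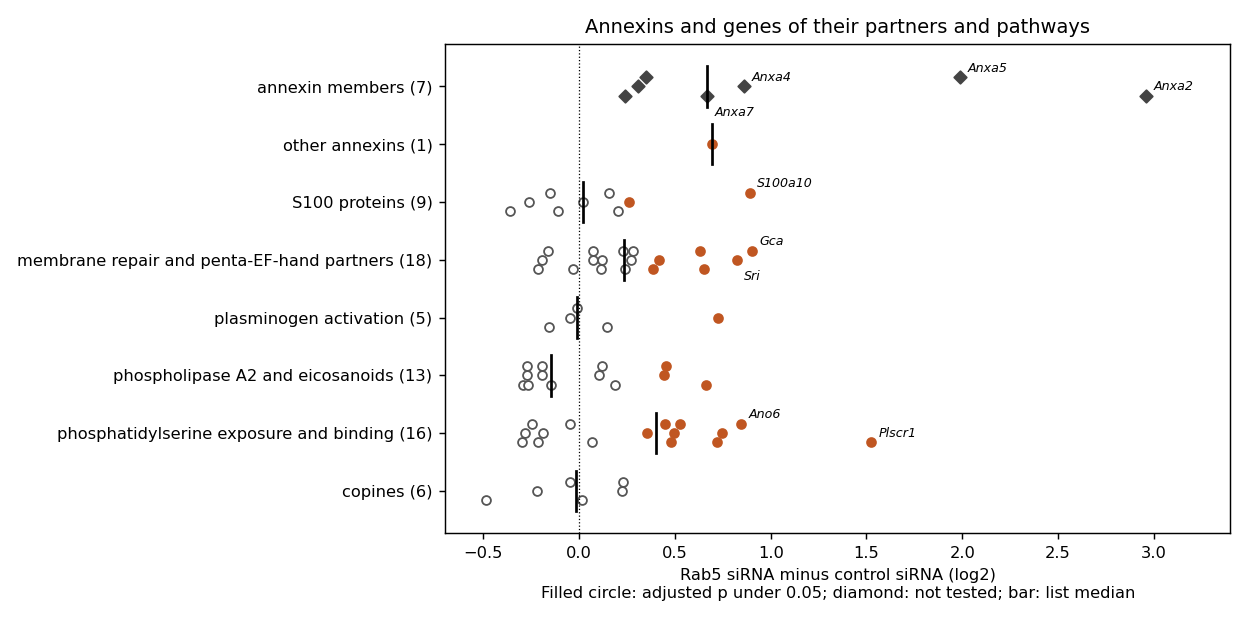
Difference between Rab5 siRNA and control siRNA (horizontal axis, log2) for each gene of the annexins and of the 7 lists (rows, measured genes in brackets); filled circles are genes called at an adjusted p under 0.05, open circles genes not called, diamonds the annexins, not tested, and vertical bars list medians. The bar lies at 0.40 for the phosphatidylserine genes and at 0.02 for the S100 proteins, where S100a10 at 0.89 stands apart. The circle of the other annexins is Anxa9, which passed the filter only through Rab5 siRNA arrays and is not counted as called.

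The genes with profiles most like those of Anxa2 and Anxa5 were found by the root mean square difference of profiles over the 10 arrays, each centred on its own mean. For Anxa2 these were Ccdc120 (0.286), alpha-fetoprotein, Afp (0.295), the carbonyl reductase Cbr3 (0.323), the basement membrane protein Nid1 (0.340) and Ect2, an exchange factor of cytokinesis (0.368). Ccdc120, Afp and Ect2 lay below the filter's value in every control siRNA and PBS array and passed only through Rab5 siRNA arrays, so their low levels have no known floor. Afp, like Anxa2, had its lowest Rab5 siRNA value in replicate 1, at 6.33 in replicate 1 and 7.85, 7.90 and 8.23 in replicates 2 to 4. For Anxa5 they were the replication helicase subunit Mcm6 (0.143), Samd4 (0.167), the replication factor Pclaf (0.198), Synpo (0.210) and the centromeric histone Cenpa (0.213). Since the arrays fall into separate groups, such likeness is mostly likeness of the difference between groups, and it is given as a description.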

How the data were processed

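Values were the log2 expression values deposited by the authors for 45101 probe sets on 10 arrays. Per the submitters' processing notes, Affymetrix Expression Console, RMA and Partek 6.6 were used. RMA equalises array distributions, so a shift common to all transcripts would not be seen. The genome build and scan batches are not given in the sources used here. Symbols came from the platform annotation: 34945 probe sets had 1 symbol, 932 several (not named) and 9160 none, and 64 were controls. The RefSeq gene table of GRCm38.p6 held the Entrez identifiers of 34741 single-symbol probe sets.

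Probe sets above 4.33 in at least 2 arrays were kept (24281), and the one with the highest mean stood for its gene (12855 genes). The model was limma's (3.58.1, lmFit and eBayes, R 4.3.3), with 1 mean for each of the 3 groups, all 10 arrays together, Benjamini-Hochberg adjustment over all genes and a threshold of 0.05. Every annexin probe set was fitted in the table of 45037 probe sets without the filter. A marker list's sum is that of its measured genes on the linear scale.

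The members, lists and tests were chosen with earlier results of these data known. Named are all members and the Rab5 genes, up to 4 called genes of each pathway list with the largest change (or the 2 largest where fewer than 2 were called), the extremes of each marker list, and the 5 genes most like Anxa2 and Anxa5. Alb, Cd68, S100a11, Cpne1, Atp11a, Atp8a1, Atp8b1, Tmem30a, Plscr2, Plscr4 and the markers below the filter were named beside these, chosen after their values were seen. Replicate numbers are shared by the titles of the groups: deviations of the same-numbered control siRNA and Rab5 siRNA arrays correlated at 0.391, 0.149, 0.186 and 0.312 across genes, so a fit with the number as a block was run as an alternative. Other alternatives were 2 filters, 2 ways to combine probe sets, 2 normalizations, array weights, only the groups compared, leaving out the arrays numbered 2, and leaving out each array in turn.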

Additional observations from a re-analysis of the deposited data

Results flagged for a closer look

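Within groups of 4, 34 sets of values of annexin probe sets were checked for a value far from the others, and 1 was found. The dimmest probe set of Anxa2 read 1.73 in Rab5 siRNA replicate 4, while the other Rab5 siRNA livers read 1.98 to 2.02. The gap was 0.842 of the range, above Dixon's 95% critical value for 4 samples, which chance passes in about 1 of 20 groups. Replicate 4 was also the liver in which the brightest Anxa2 probe set was highest.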

How the results depend on the processing

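Over 20 alternatives, 10 of them leaving out 1 array, 1187 values were recomputed, counts of calls as well as called and uncalled differences. No called difference changed sign, while 5 of the 7 uncalled annexin differences for control siRNA against PBS did in at least 1 alternative. Annexins that would be called for Rab5 siRNA against control siRNA numbered 4 or 5, and annexin probe sets 8 or 9. The fifth was Anxa6, among others with the replicate block, and its difference ran from 0.13 to 0.37. The family was picked on this contrast, so nothing is read from how steady these counts are. For Rab5 siRNA against PBS the difference of Anxa7, 0.78, became 0.59 without PBS replicate 2 and 0.62 without the arrays numbered 2. For control siRNA against PBS no annexin was called in any alternative that kept both PBS arrays.

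Without the arrays numbered 2, genes called were 1545 for Rab5 siRNA against control siRNA and 799 against PBS, and list counts were 1 for S100 proteins, 3 for membrane repair, 0 for plasminogen, 1 for phospholipase A2 and 3 for phosphatidylserine. S100 proteins also gave 1 with no filter, with probe sets averaged, with the most variable probe set and with only the groups compared. Anxa9, which passed the main filter only through Rab5 siRNA arrays and is not counted, did not pass a filter at the 75th percentile. Control siRNA against PBS gave 2 genes after quantile normalization and 3 with array weights. The replicate block gave 1 there, 5 for phospholipase A2 and 1 for copines, and it changed no other call of the annexins or of the called genes named from the lists.

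Leaving out each array in turn gave 2214 to 3426 genes for Rab5 siRNA against control siRNA, 0 to 18 for control siRNA against PBS (18 without control siRNA replicate 4) and 1116 to 2633 for Rab5 siRNA against PBS (1116 without PBS replicate 1). List counts ran from 1 to 3 for S100 proteins, 5 to 7 for membrane repair, 0 to 1 for plasminogen, 2 to 3 for phospholipase A2, 5 to 9 for phosphatidylserine and 0 to 1 for copines. Fewer arrays entered these fits, in which counts both rose and fell. The cause of these changes, and of those in the other alternatives, was not tested.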

Other observations

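The remaining Rab5a and Rab5c signals ran in different orders over the 4 Rab5 siRNA livers. Rab5a read 6.28, 7.10, 6.91 and 7.16 in replicates 1 to 4, so replicate 1, with the lowest Anxa2 (9.28) and Anxa5 (11.22), also had the lowest Rab5a. Rab5c read 7.36, 7.22, 7.28 and 6.99, and replicate 4, with the highest Anxa2 (10.74) and Anxa5 (11.62), had the lowest Rab5c. With 4 livers this order was not tested.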
